A study of Rattus norvegicus with 16 samples.

Results

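Vessels of the rat central amygdala were followed through 34 genes of endothelial cells and of the mural cells that wrap them. The genes were taken by name from the deposited count table: 12 endothelial identity genes, 3 tight junction genes, 7 transporters of the blood-brain barrier, 7 pericyte genes and 5 smooth muscle genes. All 34 of the 34 listed genes were among the 33294 genes of the table, and all 34 passed the filter on low counts that left 17856 genes for testing. The rule used names and not measured values, but it was set with earlier results of these data known.

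Adult rat offspring had been exposed around birth to the synthetic opioid fentanyl or to saline, and the central amygdala, a forebrain nucleus of fear, stress and drug-related behaviour, was taken from both exposures the day after a final IVSA session (the labels do not spell this abbreviation out or name its drug). Each animal gave 1 library of polyadenylated RNA: 6 fentanyl males, 2 fentanyl females, 6 saline males and 2 saline females. The labels give no strain, no dose and no litter, so p-values measure the spread between these animals, some of which may be littermates. Totals ran from 12879701 to 22426428 counts per library, and all levels below are CPM, the counts of a gene scaled to a common library total with TMM factors.

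Endothelial cells of brain vessels form the blood-brain barrier. Tight junctions seal the clefts between them, carriers bring glucose, amino acids, lactate and lipids across, and efflux pumps send drugs and metabolites back into the blood. Pericytes, which depend on platelet-derived growth factor signalling, cover the capillaries, and smooth muscle cells set the width of arterioles by phosphorylating myosin light chain. Several opioids are carried by the efflux pump P-glycoprotein. Bulk tissue holds vessel RNA among that of neurons and glia, so fewer cells of a type and less RNA per cell cannot be told apart here.

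In these libraries Abcg2, a drug efflux pump of the endothelial surface, had the smallest p of the 34 members in males, with higher values after fentanyl. Mylk, the kinase of myosin light chain, had the smallest p over both sexes, with lower values after fentanyl. Neither passed the adjusted threshold, and no other member did in any comparison. Promoters of 4 members are shown first because the results turn on 3 of them, Abcg2, Mylk and Notch3, while Acta2, the smooth muscle actin gene, stands for the contractile genes that varied with the endothelial genes from library to library. RefSeq gave a window of 250 bases before to 50 bases after the start for 25 of the 34 members, on build GRCr8, which is not the rn7 build of the counts. Abcg2 lies at chr4:89075224-89075523 on the plus strand. Acta2 lies at chr1:241172454-241172753, Mylk at chr11:79498525-79498824 and Notch3 at chr7:11834536-11834835, all 3 on the minus strand. Capitals mark GGGCGG on either strand in Abcg2. In the other 3 they mark the CArG box of serum response factor, with at most 1 middle base other than A or T.
Abcg2: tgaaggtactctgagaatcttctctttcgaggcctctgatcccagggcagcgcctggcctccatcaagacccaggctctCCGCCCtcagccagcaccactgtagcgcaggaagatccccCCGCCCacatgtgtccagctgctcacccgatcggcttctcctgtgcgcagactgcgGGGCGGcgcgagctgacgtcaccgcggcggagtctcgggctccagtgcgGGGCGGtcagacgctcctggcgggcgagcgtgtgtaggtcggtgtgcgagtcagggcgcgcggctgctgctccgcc
Mylk: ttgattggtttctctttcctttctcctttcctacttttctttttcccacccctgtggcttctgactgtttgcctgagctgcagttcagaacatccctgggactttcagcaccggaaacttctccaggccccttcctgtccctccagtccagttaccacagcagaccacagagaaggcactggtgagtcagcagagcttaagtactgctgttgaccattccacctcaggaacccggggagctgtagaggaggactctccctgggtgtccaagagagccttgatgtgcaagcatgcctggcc
Notch3: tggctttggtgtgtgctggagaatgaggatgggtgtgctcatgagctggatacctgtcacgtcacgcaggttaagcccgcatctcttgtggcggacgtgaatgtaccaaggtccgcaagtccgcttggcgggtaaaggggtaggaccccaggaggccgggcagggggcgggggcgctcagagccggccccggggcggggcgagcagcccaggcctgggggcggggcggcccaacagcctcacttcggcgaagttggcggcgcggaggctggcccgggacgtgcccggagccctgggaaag
Acta2: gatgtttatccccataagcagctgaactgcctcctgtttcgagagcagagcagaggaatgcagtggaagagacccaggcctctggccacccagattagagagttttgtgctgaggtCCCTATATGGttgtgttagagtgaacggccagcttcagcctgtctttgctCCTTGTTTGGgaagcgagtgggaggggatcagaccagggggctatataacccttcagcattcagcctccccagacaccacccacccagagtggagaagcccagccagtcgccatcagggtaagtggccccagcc

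The Acta2 window held 2 CArG matches, which began 134 and 84 bases before the start, while the Mylk and Notch3 windows held 0. Such a match was present in 9.42% of all 33469 rat promoter windows and in 5 of 26 member windows (Egfl7 has 2), those of Acta2, Ocln, Slco1a4, Tie1 and Kdr. With all 6 middle bases A or T it was in 1.64% of all windows and in 0 of the 26. The Abcg2 window held GGGCGG 4 times, and at least 1 copy was in 33.1% of all windows and in 17 of the 26 member windows (65.4%). AGGAAG, a core to which ETS factors bind, was in 34.5% of all windows and in 9 of the 26 (34.6%). These matches describe letters and not bound sites, and Mylk has several transcript starts of which the table gives 1.

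The labelled tissue held vessel RNA in every library. Summed over the 12 endothelial identity genes, the level was 202 to 382 CPM in fentanyl males, 209 and 272 CPM in fentanyl females, 169 to 276 CPM in saline males and 237 and 264 CPM in saline females. The 12 mural genes together had 80.7 to 142 CPM in fentanyl males, 68.6 and 86.4 CPM in fentanyl females, 82.0 to 120 CPM in saline males and 96.7 and 129 CPM in saline females. Both sums overlapped between exposures in males. No member was at 0 in any library, and the lowest count was 13, for Anpep, which encodes aminopeptidase N of the pericyte surface.

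The library of fentanyl male replicate 2 stood apart. It had the highest level of the 16 libraries for 23 of the 34 members, against 18.6% of all genes tested, and the lowest for 1 member, Rgs5. Its level over the mean of the other 5 fentanyl males was 3.20 for Acta2, 2.93 for Myl9 (myosin light chain), 2.47 for Cldn5 (the main claudin of brain endothelium) and 2.22 for Emcn (an endothelial sialomucin). The same ratio was 1.14 for Mylk, 0.998 for Notch3, 0.934 for Tjp1 and 0.503 for Rgs5, a regulator of G-protein signalling that marks pericytes. This library also had the highest mean of the 10 meningeal fibroblast markers (2.40 on the log2 CPM scale, against 1.83 to 2.28 in the other 5 fentanyl males). Its mean log2 CPM of the 10 neuron markers was the lowest (6.35). Summed, the neuron markers had 4026 CPM in this library, within the 4020 to 4181 CPM of all fentanyl males. Saline males had 3585 to 3969 CPM, so the low mean was not a low sum. At the other end, saline male replicate 3 had the lowest level for 14 of the 34 members, against 7.02% of all genes. Its summed central amygdala neuron markers were the highest, at 418 CPM, against 93.7 to 256 CPM in the other libraries. Several fold changes and correlations are therefore given with and without fentanyl male replicate 2.

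**Figure D1:**
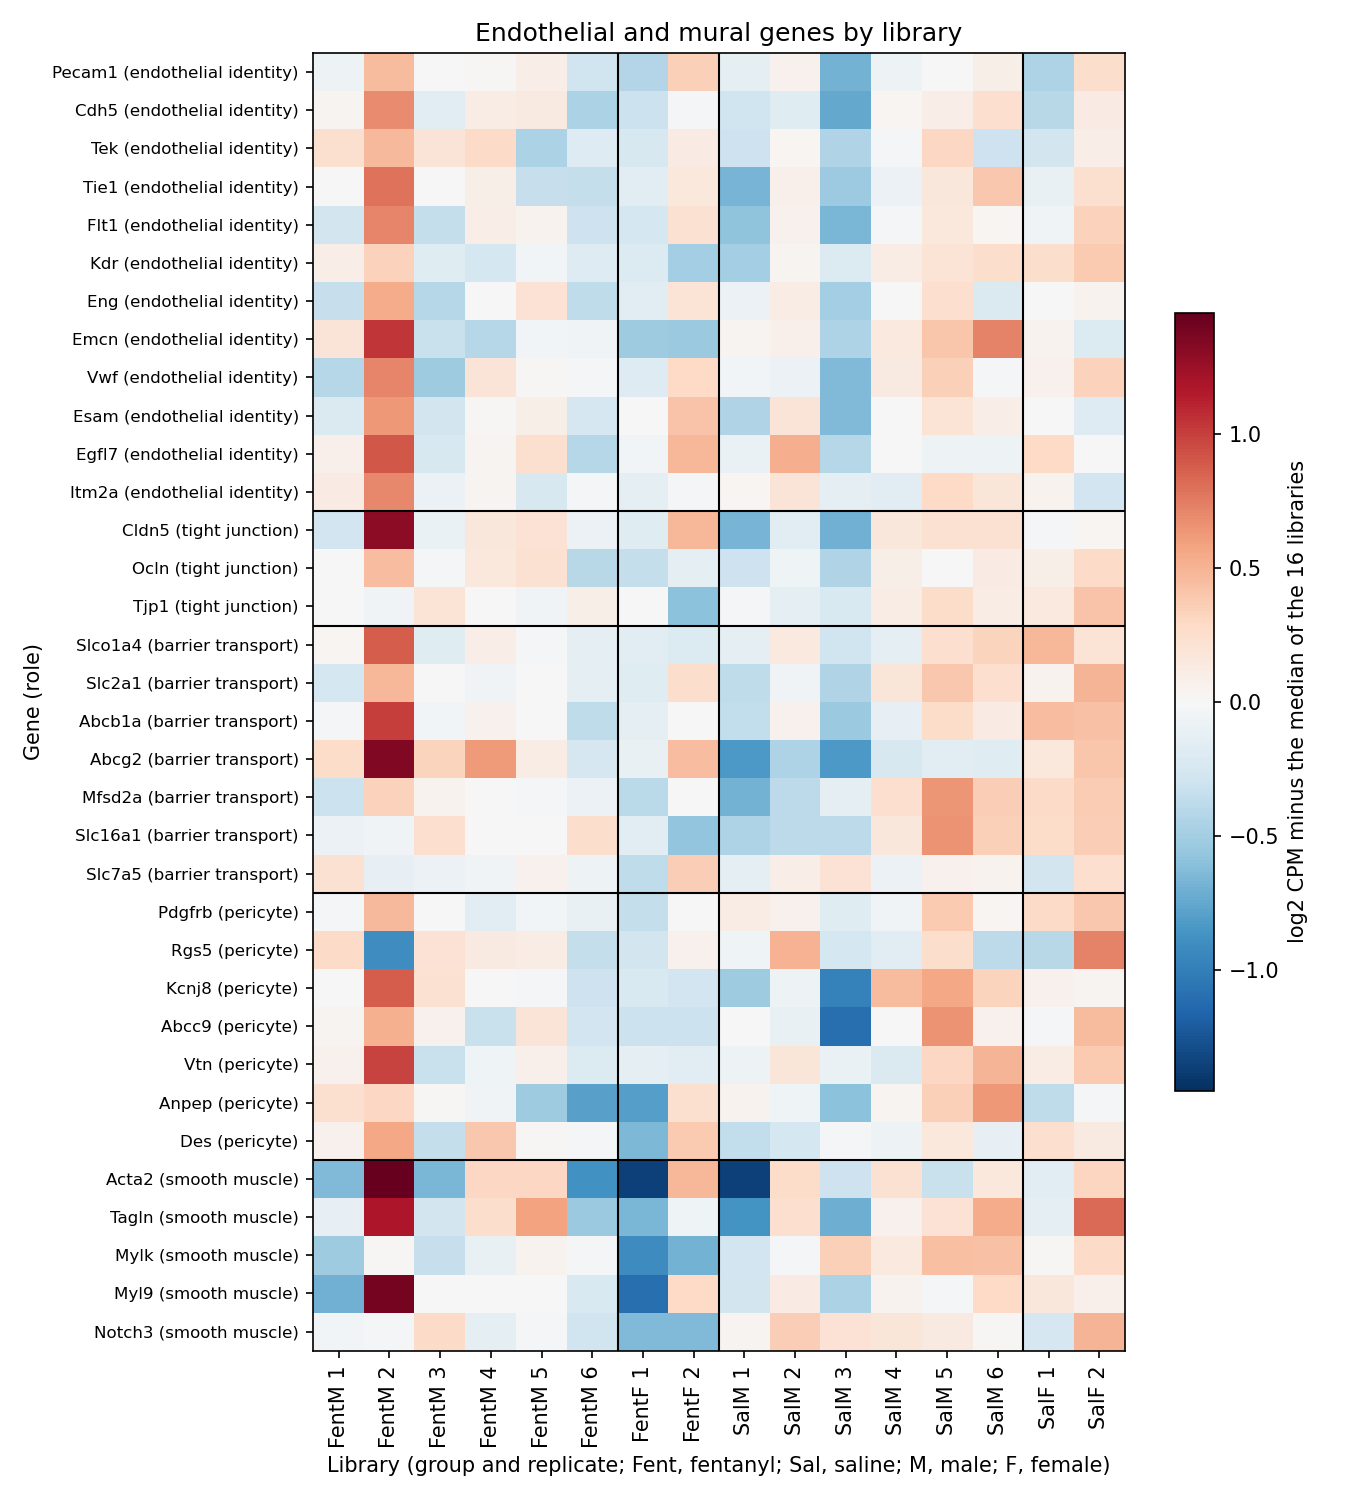
Level of each of the 34 genes (rows, grouped by role) in each of the 16 libraries (columns), as log2 CPM minus that gene's median over the libraries. Red is above and blue is below the median. Fentanyl male replicate 2 is the highest library for 23 of the 34 genes and the lowest for Rgs5, and saline male replicate 3 is the lowest for 14.

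**Figure D2:**
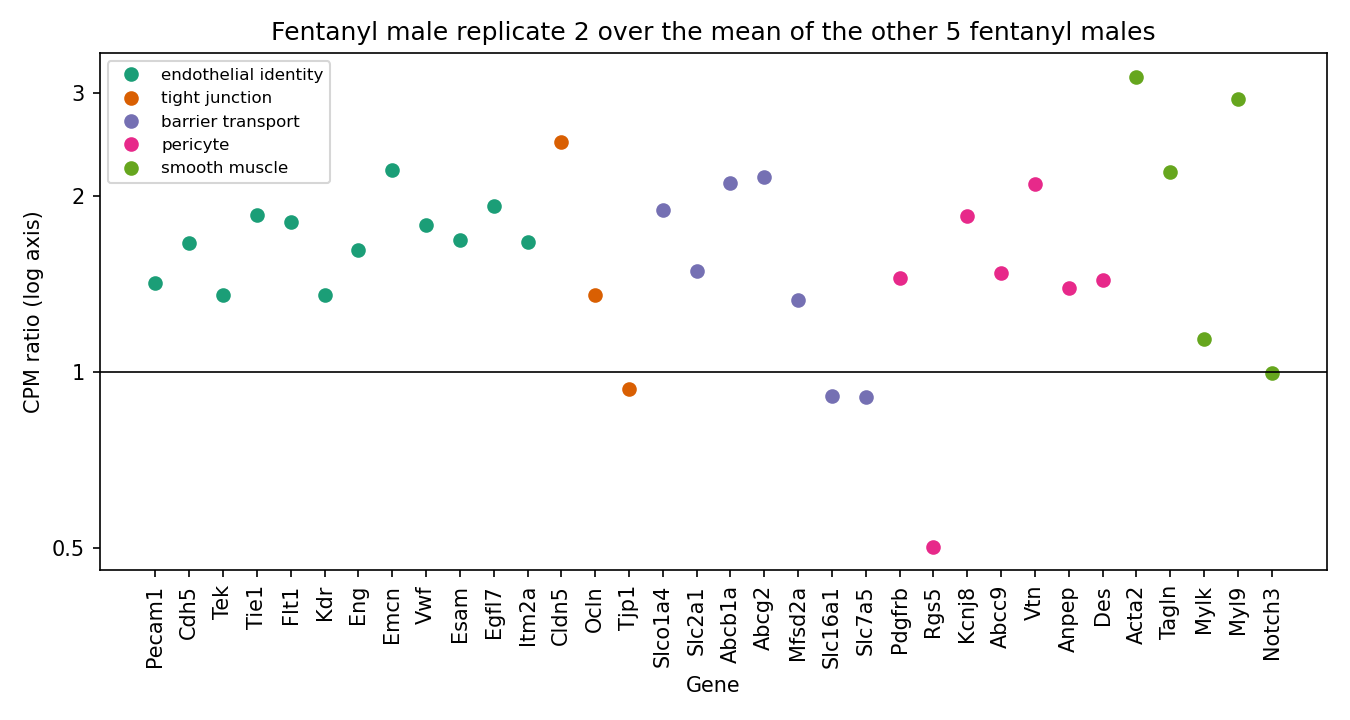
CPM of each gene in fentanyl male replicate 2 divided by the mean of the other 5 fentanyl males, on a log axis, coloured by role. The line is a ratio of 1. Acta2 is at 3.20 and Rgs5 at 0.503, while Mylk, Notch3 and Tjp1 are at 1.14, 0.998 and 0.934.

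Over both sexes, with sex as a term, 0 of the 34 members passed an adjusted p of 0.05 when edgeR's quasi-likelihood p was adjusted by Benjamini-Hochberg, against 0.0784% of all genes tested. DESeq2 also called 0 members, against 0.487% of all genes. With sample quality weights limma voom called 1 of the 34, Mylk, against 5.63% of all genes. At an unadjusted p under 0.05 there were 3 members (8.82%), Abcg2 higher and Mylk and Notch3 lower, against a background of 7.27%, so the members' share was close to that of all genes. No member (0 of 34) separated the 8 fentanyl from the 8 saline libraries without overlap, which 0.101% of all genes did. The median log2 fold change of the members was 0.02, with 19 above 0 and 15 below, and the median of all genes was -0.01. Without fentanyl male replicate 2 the members' median was -0.12.

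Endothelial identity genes showed no change that passed the test. Of the 12, 10 had a log2 fold change above 0, with a range of -0.19 to 0.17. Flt1, a receptor of vascular endothelial growth factor (VEGF) and the member of this group with the most counts, had 43.6 to 90.9 CPM with a median of 52.0 in fentanyl libraries, against 35.1 to 69.7 CPM with a median of 55.5 in saline libraries. The ranges overlapped between 43.6 and 69.7 CPM, and the highest value, 90.9 CPM, was that of fentanyl male replicate 2. Its log2 fold change was 0.09 ± 0.17 (SE, 8 against 8 libraries; adjusted p = 0.904 by edgeR) and -0.03 without fentanyl male replicate 2. Kdr, the main signalling receptor of VEGF, had -0.19 ± 0.14. The adhesion genes Pecam1, Cdh5 and Esam had 0.14, 0.14 and 0.16, and the angiopoietin receptors Tek and Tie1 had 0.17 and 0.09, all on the log2 scale with adjusted p of 0.823 or more by the same test. Without fentanyl male replicate 2 these 5 values were 0.07, 0.04, 0.06, 0.12 and -0.04.

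Tight junction genes did not pass the test either. Cldn5 averaged 71.4 ± 31.4 CPM in fentanyl libraries and 55.7 ± 13.1 CPM in saline libraries (SD, n = 8 each), and the highest fentanyl value, 144 CPM, was that of fentanyl male replicate 2. Its log2 fold change was 0.36 ± 0.22 (SE; adjusted p = 0.767 by edgeR), and 0.13 without that library. Tjp1, which encodes the scaffold ZO-1, had 84.4 to 146 CPM with a median of 127 in fentanyl libraries, against 110 to 171 CPM with a median of 137 in saline libraries. The difference was -0.13 ± 0.11 on the log2 scale (adjusted p = 0.825 by edgeR), and -0.05 without fentanyl female replicate 2. Ocln, which encodes occludin, had 0.02 ± 0.13.

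Among the barrier transporters Abcg2 had the largest log2 fold change of all 34 members. It had 9.29 to 28.0 CPM with a median of 13.5 in fentanyl libraries, against 6.18 to 14.6 CPM with a median of 9.54 in saline libraries. No saline male was above 9.91 CPM, and of the other 10 libraries 1, fentanyl male replicate 6, was below that. The log2 fold change over both sexes was 0.66 ± 0.22 (SE; unadjusted p = 0.00877, adjusted p = 0.501 by edgeR), and 0.47 without fentanyl male replicate 2. Slc2a1, the glucose carrier GLUT1 and the transporter with the most counts, had 85.0 to 142 CPM with a median of 99.1 in fentanyl libraries, against 74.7 to 143 CPM with a median of 110 in saline libraries, a log2 fold change of -0.06 ± 0.14. The remaining transporters lay between -0.18 for Mfsd2a, which carries lysophospholipids, and 0.06 for Abcb1a, which encodes the efflux pump P-glycoprotein and was at -0.13 without fentanyl male replicate 2.

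Pericyte genes had a median log2 fold change of -0.09, with 2 of 7 above 0. Pdgfrb, the receptor on which pericytes depend, had 17.2 to 30.2 CPM with a median of 21.3 in fentanyl libraries, against 19.3 to 28.7 CPM with a median of 23.1 in saline libraries. The ranges overlapped, with -0.15 ± 0.11 on the log2 scale (adjusted p = 0.814 by edgeR). The value was -0.22 without fentanyl male replicate 2 and -0.09 without fentanyl female replicate 1. Kcnj8 and Abcc9, the pore and the regulatory subunit of the pericyte potassium channel, had 0.01 and -0.09, and Vtn, which encodes vitronectin, had -0.07. They had -0.12, -0.17 and -0.24 without fentanyl male replicate 2. Anpep and Des, which encodes the filament protein desmin, were at 0.836 to 2.24 CPM and at 0.836 to 1.94 CPM over the 16 libraries, too few counts to resolve a small change.

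Among smooth muscle genes Mylk and Notch3 had the 2 smallest p. Acta2, Tagln and Myl9, which encode smooth muscle actin, transgelin and myosin light chain, had 0.19, 0.04 and 0.11 on the log2 scale with SEs of 0.35, 0.28 and 0.27. All 3 were below 0 without fentanyl male replicate 2, at -0.13, -0.16 and -0.18. Mylk had 4.91 to 9.58 CPM with a median of 7.96 in fentanyl libraries, against 7.62 to 12.5 CPM with a median of 10.7 in saline libraries. The lowest 2 values were those of the fentanyl females, and the groups overlapped between 7.62 and 9.58 CPM. Its log2 fold change was -0.49 ± 0.14 (SE; unadjusted p = 0.0024, adjusted p = 0.367 by edgeR), and it was below 0 under all 27 alternatives and left-out libraries run, with adjusted p from 0.0114 to 0.999. Notch3, a receptor that mural cells need to mature, had 7.97 to 15.04 CPM with a median of 11.7 in fentanyl libraries, against 10.5 to 17.5 CPM with a median of 13.8 in saline libraries. The log2 fold change was -0.34 ± 0.12 (unadjusted p = 0.0132, adjusted p = 0.555 by edgeR), and -0.23 without saline female replicate 2.

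In males 0 of the 34 members passed the adjusted threshold, against 0.0392% of all genes, and 2 members (5.88%) had an unadjusted p under 0.05, against 4.13%. DESeq2 and limma voom called 0 members as well, against 0.241% and 0.47% of all genes. Of the 34 log2 fold changes 25 were above 0, with a median of 0.09, which was -0.04 without fentanyl male replicate 2. Abcg2 had 9.29 to 28.0 CPM with a median of 13.5 in the 6 fentanyl males, against 6.18 to 9.91 CPM with a median of 8.71 in the 6 saline males. Of the fentanyl males 5 lay above every saline male, and replicate 6, at 9.29 CPM, lay within their range. The log2 fold change was 0.91 ± 0.23 (SE; unadjusted p = 0.0012, adjusted p = 0.475 by edgeR). DESeq2 gave an adjusted p of 0.0559. Without fentanyl male replicate 2 the value was 0.67, with an unadjusted p of 0.0016. No member (0 of 34) separated fentanyl from saline males without overlap in CPM, which 0.375% of all genes did.

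Set against the other endothelial genes of the same library, Abcg2 did separate the exposures in males. Its log2 CPM minus the mean log2 CPM of the 12 endothelial identity genes was -0.49 to 0.19 with a median of -0.08 in the 6 fentanyl males, against -1.06 to -0.72 with a median of -0.82 in the 6 saline males. The groups did not overlap, in fentanyl male replicate 2 (0.19) as in the others. Of the 22 members outside the identity list, 1 (4.55%), Abcg2, separated in this way, against 0.157% of the 17844 other genes tested. This measure was chosen after the values of Abcg2 were seen, so these shares are a description and not a test. In females the difference was -0.37 and -0.14 after fentanyl, against -0.28 and -0.18 after saline, so that all 4 females lay within the range of the fentanyl males. The endothelial mean as a covariate was a setting chosen after the data were seen. With it 0.0504% of all genes were called, and the male log2 fold change of Abcg2 was 0.74 ± 0.11 (adjusted p = 0.0245 by edgeR). With the means of the striatal and oligodendrocyte markers as covariates instead it was 0.61 (unadjusted p = 0.0437, adjusted p = 0.78 by edgeR).

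Markers of other cells moved beside Abcg2. Over the 16 libraries its log2 CPM followed the meningeal fibroblast list with Pearson r = 0.75 (0.65 without fentanyl male replicate 2) and the endothelial identity list with r = 0.73 (0.51 without it). The points share depth and tissue composition. Of the 10 meningeal fibroblast markers 10 had a male log2 fold change above 0, with a median of 0.44. Among them 4 had an unadjusted p under 0.05, against 4.13% of all genes. Summed, the 10 markers reached 46.7 to 73.9 CPM in fentanyl males, against 30.7 to 53.6 CPM in saline males. In females 8 of the 10 were below 0, with a median of -0.38. Of the 10 striatal spiny neuron markers 9 were above 0 in males, with a median of 0.37. Over both sexes all 10 were above 0, with a median of 0.54 and 5 at an unadjusted p under 0.05, against 7.27% of all genes. Of the 8 central amygdala neuron markers 1 was above 0 in males, with a median of -0.36. Over both sexes 5 of the 8 were above 0, with a median of 0.04. The 6 ependymal markers tested were all below 0, with medians of -0.45 in males and -0.36 over both sexes. Beyond the fits with list means as covariates, the part of these markers in the Abcg2 and Mylk results was not tested.

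Mylk had 6.45 to 9.58 CPM with a median of 8.86 in fentanyl males, against 7.62 to 12.5 CPM with a median of 10.9 in saline males. The log2 fold change was -0.34 ± 0.14 (SE; unadjusted p = 0.0301, adjusted p = 1.0 by edgeR). Saline males carry library numbers in 2 sets, 1 and 2 and then 9 to 12, and Mylk differed between them, with 7.62 and 9.15 CPM in the first set and 10.2 to 12.5 CPM in the second. The male log2 fold change was -0.47 against the second set alone and -0.0024 (unadjusted p = 0.99) against the first alone. For Abcg2 the same values were 0.83 and 1.12, so its direction held against either set. What the number sets stand for is not given in the labels.

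**Figure D3:**
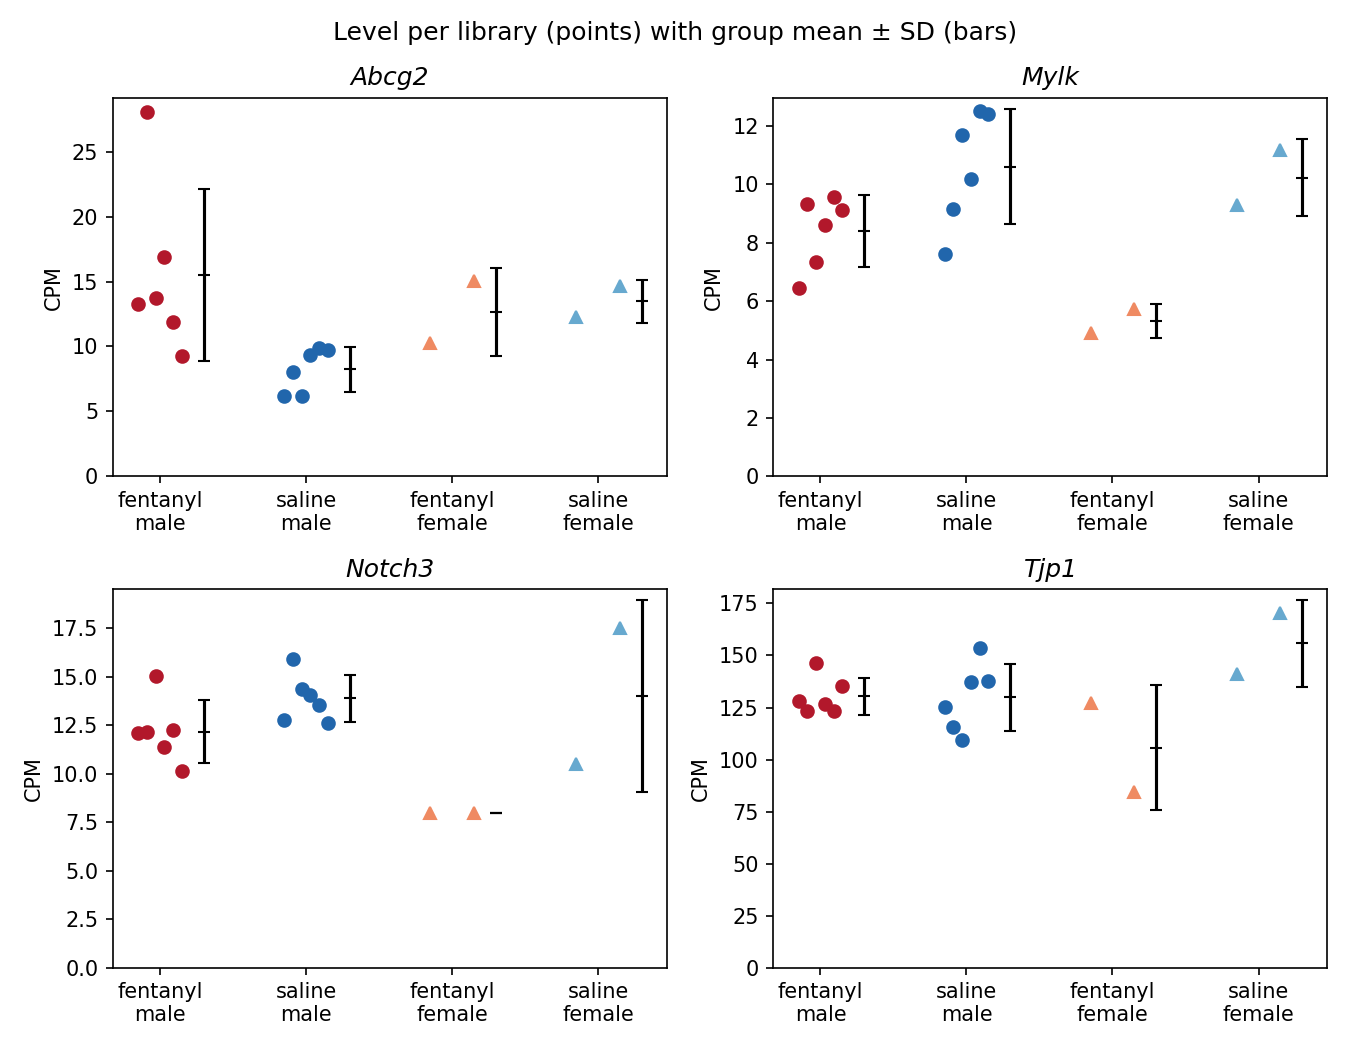
CPM of Abcg2, Mylk, Notch3 and Tjp1 in each library (points; circles are males and triangles females), with the group mean and SD (bars; 6 libraries in male groups, 2 in female groups). Abcg2 has a median of 13.5 CPM in fentanyl males, against 8.71 CPM in saline males. Mylk lies at 4.91 and 5.74 CPM in fentanyl females and at 9.31 and 11.2 CPM in saline females.

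In females 26 of the 34 members had a log2 fold change below 0, and 0 of 34 passed the adjusted threshold, against 0% of all genes. DESeq2 and limma voom also called 0 members, against 0.112% and 0% of all genes. With 2 libraries a group, fentanyl numbers 1 and 2 and saline numbers 10 and 11, exposure and number set cannot be told apart. The female SEs and p-values came from the fit of the 4 groups and so borrowed the spread of the males. At an unadjusted p under 0.05 there were 6 members (17.6%), all lower, against 14.3% of all genes, and 15 members (44.1%) separated the 2 fentanyl from the 2 saline females, against 48.8%. Both shares were near the background. The median log2 fold change of the 34 was -0.28, while the median of all genes was -0.01. All 12 mural genes were below 0, with a median of -0.38 and Anpep at -0.0055, and the 22 endothelial genes had a median of -0.11. Without fentanyl female replicate 1 the mural genes Acta2, Anpep, Des and Myl9 turned to 0.39, 0.42, 0.19 and 0.17. Rgs5 turned to 0.30 without saline female replicate 2. The other mural genes stayed below 0 with any 1 library left out. Without fentanyl female replicate 1 the members' median was 0.02, and without replicate 2 it was -0.46.

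Mylk had 4.91 and 5.74 CPM in fentanyl females, against 9.31 and 11.2 CPM in saline females, a log2 fold change of -0.94 ± 0.25 (SE; unadjusted p = 0.00167, adjusted p = 0.333 by edgeR). Notch3 had 7.97 and 7.99 CPM in fentanyl females, against 10.5 and 17.5 CPM in saline females, a log2 fold change of -0.81 ± 0.22 (unadjusted p = 0.00191, adjusted p = 0.333 by edgeR). It was -0.40 without saline female replicate 2 and -1.13 without replicate 1. Both fentanyl females lay below both saline females for these 2 genes, while 48.8% of all genes separated the pairs in either direction.

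Tjp1 had 127 and 84.4 CPM in fentanyl females, against 141 and 171 CPM in saline females. The log2 fold change of -0.56 ± 0.19 (adjusted p = 0.333 by edgeR) was -0.30 without fentanyl female replicate 2 and -0.88 without replicate 1. Kdr had 7.64 and 6.22 CPM in fentanyl females, against 10.5 and 11.4 CPM in saline females, with -0.66 ± 0.25 on the log2 scale. Pdgfrb had 17.2 and 21.8 CPM in fentanyl females, against 26.5 and 28.7 CPM in saline females, with -0.50 ± 0.20 on the log2 scale. Leaving out 1 fentanyl female moved Pdgfrb to -0.34 (without replicate 1) or -0.69 (without replicate 2). For these 3 genes too the pairs of libraries did not overlap, as for 48.8% of all genes.

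Glial markers moved with the female values. Of the 10 oligodendrocyte markers 10 had a female log2 fold change below 0, with a median of -1.01, and their summed level was 8183 and 19210 CPM in fentanyl females, against 25531 and 25923 CPM in saline females. All 10 astrocyte and all 10 microglia markers were also below 0, with medians of -0.53 and -0.64. The 5 perivascular macrophage markers were below 0 as well, with a median of -0.88 and 2 at an unadjusted p under 0.05, against 14.3% of all genes. Their levels were low, with sums of 4.63 and 5.52 CPM in fentanyl females, against 8.06 and 8.10 CPM in saline females. The 10 striatal spiny neuron markers were above 0 with a median of 0.88. Of the 8 central amygdala neuron markers 7 were above 0, with a median of 0.92. With the striatal and oligodendrocyte list means as covariates the female log2 fold changes of Mylk and Notch3 were -0.67 and -0.86, and the members' median was -0.15.

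**Figure D4:**
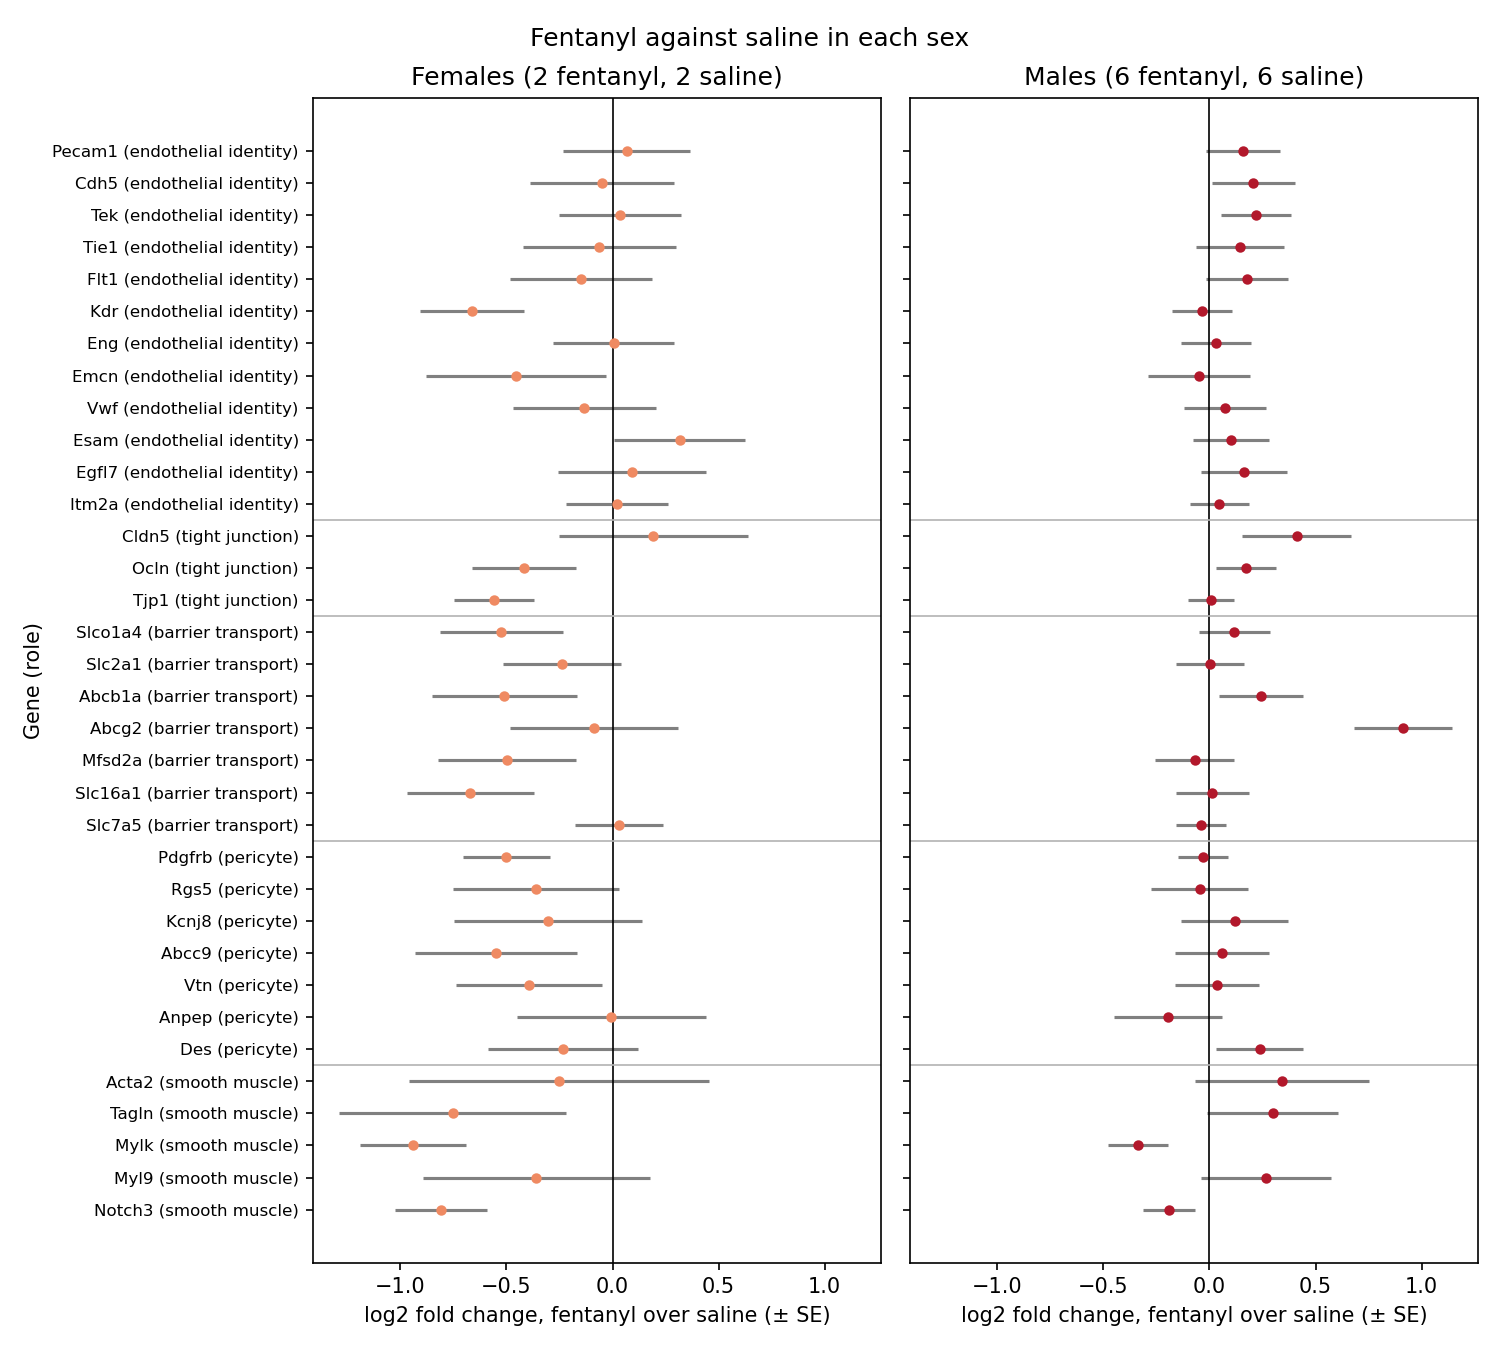
Log2 fold change of fentanyl over saline for each of the 34 genes, with SE bars from edgeR's fit of the 4 groups, in females (left) and in males (right). In females 26 of the 34 genes are below 0, among them all 12 mural genes (Anpep at -0.0055), and in males 25 are above 0.

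The difference between the sexes was tested itself, as the female minus the male log2 fold change. No member (0 of 34) passed the adjusted threshold in edgeR's quasi-likelihood test, against 0% of all genes. DESeq2 and limma voom called 0 members, against 0.0224% and 0% of all genes. At an unadjusted p under 0.05 there were 4 members (11.8%), against 8.23% of all genes. These were Abcg2 at -0.999 ± 0.458, Kdr at -0.63 ± 0.28, Notch3 at -0.62 ± 0.25 and Tjp1 at -0.57 ± 0.22 (SE; adjusted p = 0.57 for each by edgeR). With 1 library left out Notch3 ran from -0.94 (without saline female replicate 1) to -0.21 (without saline female replicate 2), and Tjp1 from -0.89 to -0.30 (without fentanyl female replicates 1 and 2 in turn). Over all 34 the median was -0.43, with 31 below 0, but it was -0.20 without fentanyl male replicate 2, -0.14 without fentanyl female replicate 1 and 0.03 with the striatal and oligodendrocyte means as covariates. Females against males, with exposure as a term, gave 0 members of 34 past the adjusted threshold, against 0.056% of all genes, and 0 at an unadjusted p under 0.05, against 2.52%. DESeq2 and limma voom called 0 members there too, against 0.0672% and 0.084% of all genes.

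The members varied together from library to library. Over the 16 libraries the Pearson correlation of log2 CPM between members had a median of 0.53 over 561 pairs, and 0.42 in the 15 libraries without fentanyl male replicate 2. With the 4 group means removed it was 0.59. The points share depth and tissue composition, and these correlations are a description. Flt1, Cldn5 and Abcb1a followed the mean of the 12 identity genes most closely of the 34, with r of 0.92, 0.90 and 0.89. An identity gene such as Flt1 was left out of the mean it was set against. Without fentanyl male replicate 2 these were 0.89, 0.79 and 0.79, and Slc2a1 (0.82) and Tagln (0.81) came above Cldn5 and Abcb1a. The contractile genes Tagln, Myl9 and Acta2 had 0.86, 0.80 and 0.77 with the endothelial mean, although they mark another cell type, and 0.81, 0.59 and 0.63 without that library. Mylk, of the same contractile apparatus, had 0.18 and Notch3 had 0.06, and the member nearest to Mylk was Notch3 (r = 0.66).

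Of the lists examined, Slc16a1, Tjp1, Kdr and Mfsd2a each had their highest correlation with a glial one. Slc16a1, the lactate and ketone carrier MCT1, is also made by oligodendrocytes, and its log2 CPM followed the mean of the 10 oligodendrocyte markers with r = 0.92 (0.95 without fentanyl male replicate 2), against 0.23 with the endothelial mean and 0.47 with the mean of the pericyte members. It had 57.0 to 72.5 CPM with a median of 60.6 in fentanyl males, 53.9 and 40.8 CPM in fentanyl females, 44.3 to 95.2 CPM with a median of 57.2 in saline males and 73.0 and 77.8 CPM in saline females. Saline males with library numbers 1 and 2 had 44.3 and 46.5 CPM, while those with numbers 9 to 12 had 46.6 to 95.2 CPM. Its female log2 fold change was -0.67 ± 0.30 (unadjusted p = 0.0402, adjusted p = 0.344 by edgeR), beside the lower oligodendrocyte sum of the fentanyl females. Tjp1 followed the microglia, astrocyte and oligodendrocyte lists with r of 0.84, 0.83 and 0.77, against 0.07 with the endothelial mean. Kdr and Mfsd2a had r of 0.77 and 0.78 with the oligodendrocyte list, against 0.50 and 0.55 with the endothelial mean (without Kdr for Kdr itself). They had 0.66 and 0.64 with the pericyte members and 0.65 and 0.67 with the smooth muscle members. Mylk followed the perivascular macrophage list (r = 0.78), which summed to only 4.63 to 13.9 CPM, and ran against the striatal list (r = -0.68). Slc7a5, the large amino acid carrier LAT1, had r = 0.07 with the endothelial mean and Rgs5 had -0.15. Without fentanyl male replicate 2 these were 0.27 and 0.46.

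**Figure D5:**
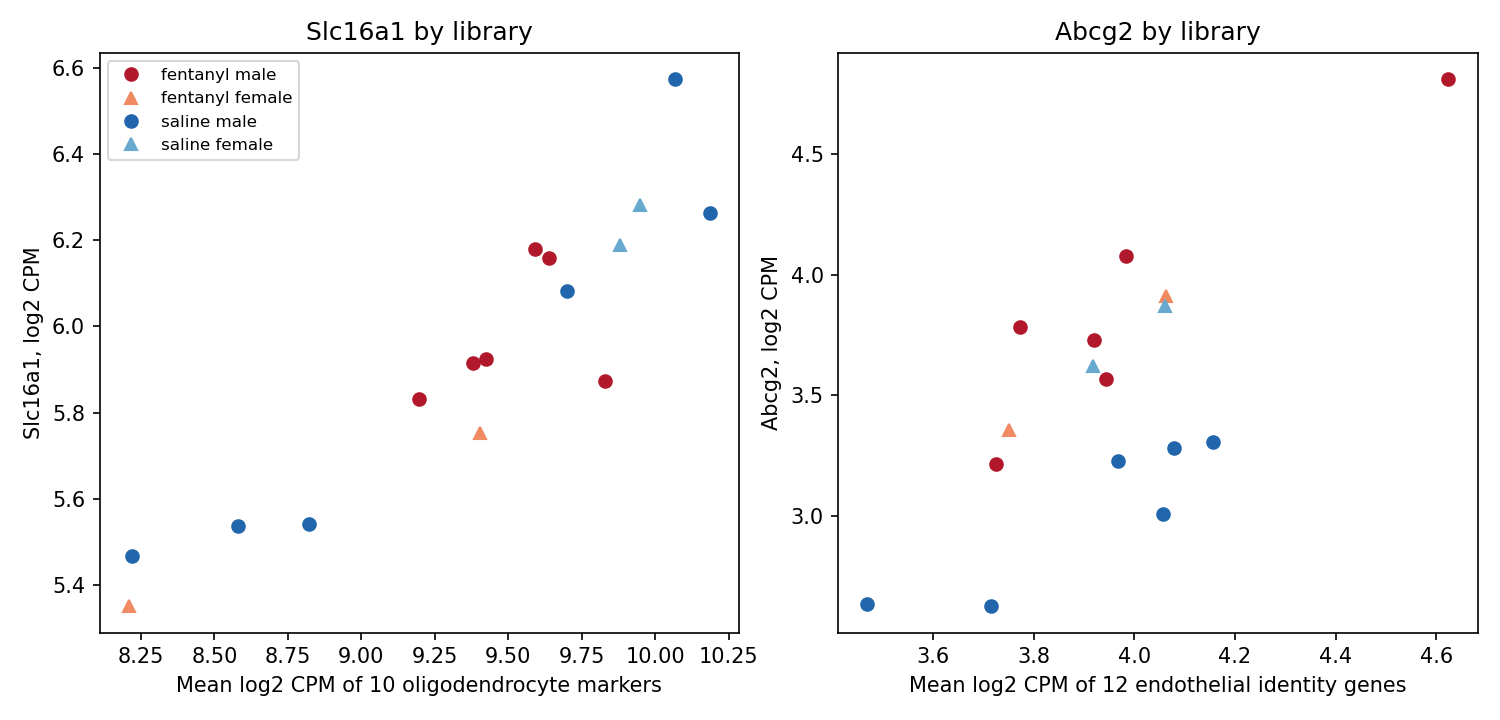
Left, log2 CPM of Slc16a1 against the mean log2 CPM of 10 oligodendrocyte markers, and right, log2 CPM of Abcg2 against the mean log2 CPM of the 12 endothelial identity genes, in each of the 16 libraries. Over the 16 libraries r is 0.92 for Slc16a1, although fentanyl male replicate 2, with the highest oligodendrocyte mean of the fentanyl males, has less Slc16a1 than 4 of the other 5. At a like endothelial mean the fentanyl males have more Abcg2 than the saline males, and the 4 females lie with the fentanyl males.

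Other genes of the vessel wall were read from 5 further lists, in which no gene passed the adjusted threshold in edgeR's test over both sexes, in males or in females. Of 33 vascular ligand and signalling genes, 25 were below 0 over both sexes, with a median log2 fold change of -0.11. The smallest p among them was that of Angpt1, the ligand of the receptor encoded by Tek, at -0.69 ± 0.23 (unadjusted p = 0.00764, adjusted p = 0.485 by edgeR). The 23 genes of endothelial Wnt signalling had a median of -0.06, with the transcription factor gene Sox7 at 0.59 ± 0.27. The 34 other endothelial and barrier genes tested had -0.02, with Slc3a2, the partner chain of Slc7a5, at -0.23 ± 0.08. The 21 other mural genes tested had 0.07, with Cspg4, a proteoglycan gene of pericytes and of oligodendrocyte precursors, at -0.28 ± 0.11. The 13 basement membrane genes had -0.04, with the laminin gene Lamc1 at 0.16 ± 0.07.

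In females the 5 medians were -0.31, -0.23, -0.19, -0.14 and -0.43, in the same order, and all lay below that of all genes (-0.01). The smallest female p in each list was that of Tgfbr1, a receptor of transforming growth factor beta (-0.77 ± 0.26), Wnt7a, a Wnt ligand made by neural cells (0.64 ± 0.22), the junction gene Jam2 (-0.79 ± 0.22), the pericyte gene Atp13a5 (-0.82 ± 0.24) and the nidogen gene Nid1 (-1.05 ± 0.32). Each had an adjusted p of 0.333 by edgeR. In males the 5 medians were -0.04, 0.02, 0.07, 0.14 and 0.05.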

How the data were processed

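RNA from the central amygdala of 16 adult rats was sequenced after poly(A) selection, 1 library per animal. The authors deposited raw counts per gene. HTSeq, STAR, Trimmomatic, DESeq2 and build rn7 are named in the submitters' processing notes, with versions, strand setting and annotation not given in the sources used here. Of 33294 genes, 5345 had no count in any library. The closest of the 120 pairs of libraries differed by a chi-square of 3.836 per gene, more than sampling noise, so all 16 were kept as separate samples.

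Counts were filtered with edgeR's filterByExpr (minimum count 10, 0.603 CPM), TMM scaled and fitted with edgeR 4.0.16 (glmQLFit, robust, and glmQLFTest) in R 4.3.3, with exposure and sex as terms or with the 4 groups, and adjusted by Benjamini-Hochberg over 17856 genes at 0.05. The script was tested on simulated data. Log2 CPM used a prior count of 2. Alternatives used DESeq2 1.42.0, limma 3.58.1 and sva 3.50.0. CPM depends on tissue composition, because reads of any cell type share one total.

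Named members were those with the smallest p among unadjusted p under 0.05 (up to 8 over both sexes, up to 5 elsewhere) and the member of each role with the highest mean CPM; Abcg2 against the endothelial mean, Cldn5, Slc16a1 and genes named by correlation were chosen after their values were seen. In each further vascular list the gene with the smallest p was named. The members and lists were chosen with earlier results of these data known. Of 259 list entries in 21 lists, 2 matched through an older symbol and 2 found no row. No promoter window was used for Pecam1, Cdh5, Tek, Vwf, Esam, Mfsd2a, Pdgfrb, Tagln and Myl9.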

Additional observations from a re-analysis of the deposited data

Results flagged for a closer look

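The 34 members were looked at in both male groups of 6 libraries, 68 combinations, of which 16 held a library far from the other 5 by Dixon's criterion, where 3.4 are expected at 1 in 20. In 14 of them it was the highest value, that of fentanyl male replicate 2. Over all genes tested that library was the highest of the 16 for 18.6% and the lowest for 18.2%. The members vary together and the criterion was not run on all genes, so 3.4 does not measure how unusual these members are. In endothelial identity genes this library had 21.1 CPM for Tie1, 90.9 for Flt1, 9.27 for Emcn, 21.9 for Esam and 57.9 for Itm2a. Among tight junction and transport genes it had 144 CPM for Cldn5, against 48.5 to 67.8 CPM in the other fentanyl males, 54.7 for Slco1a4, 142 for Slc2a1 and 51.8 for Abcb1a. Among mural genes it had 30.2 CPM for Pdgfrb, 6.83 for Kcnj8, 21.1 for Vtn, 8.20 for Acta2 and 13.4 for Myl9. Abcg2 is not among them. In saline males the lowest Pecam1, 9.35 CPM in replicate 3, and the highest Egfl7, 22.9 CPM in replicate 2, stood apart from the other 5 libraries.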

How the results depend on the processing

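Results were recomputed with each of the 16 libraries left out in turn and under 11 alternatives over both sexes, 10 in males, 8 in females and 9 for the difference between sexes. The 0 members called in every comparison became 1 lower over both sexes, Mylk, with limma voom quality weights (-0.53, adjusted p = 0.0194; 663 genes higher and 343 lower in all, against 9 and 5 by edgeR and 52 and 35 by DESeq2), without the saline males of numbers 1 and 2 (-0.61, adjusted p = 0.0114) and with 3 surrogate variables (-0.42, adjusted p = 0.0457; 246 higher and 108 lower). Without the saline males of numbers 1 and 2, 752 genes were higher and 474 lower in all over both sexes (6.9% of all genes). Abcg2 became 1 member called higher in males with the endothelial mean as a covariate. That fit called 8 genes higher and 1 lower in all (0.0504% of all genes). Without the saline males of numbers 9 to 12, 3 of the 34 members, Mfsd2a, Mylk and Slc16a1, were lower in the difference between sexes. That fit called 16.4% of all genes, 1226 higher and 1633 lower. In females DESeq2 called 10 genes higher and 10 lower and a fit of females alone 22 and 43, none of them a member. Flt1 over both sexes turned to -0.13 with voom, -0.16 with striatal and oligodendrocyte means as covariates and -0.0064 with surrogate variables, and ran from -0.032 to 0.16 with 1 library left out. Slc2a1 turned to 0.038 without the saline males of numbers 9 to 12 and ran from -0.13 to 0.0057 with 1 library left out. The cause of these turns was not tested. The median of the members moved to -0.18 in males with the striatal and oligodendrocyte means as covariates. Abcg2 in males ran from 0.67 to 1.02 with 1 library left out.

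With the replicate block, 5 genes were higher and 2 lower over both sexes, none of them a member, with Mylk at -0.48 and Abcg2 at 0.61, and Abcg2 at 0.86 in males; it changed no other call of a member. Males of the same replicate number deviated together weakly (6 pairs, r from -0.15 to 0.29, 2 over 0.1). Among fentanyl males 1 correlated best with its own replicate number, and replicate numbers were not taken to pair the samples. Replicate numbers are not library numbers, since saline male replicates 3 to 6 carry library numbers 9 to 12. Depth limits the genes with few counts, Anpep, Des and Acta2.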
